A study of Mus musculus with 14 samples.

Results

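The cells described here are 4 retinal ganglion cells (RGCs) in which Nefh, the gene of the heavy neurofilament subunit, gave a low signal. They were set against the other 10 of the 14 single cells of the series. A cell was placed in the Nefh-low set when the single Nefh probe set gave a signal below 3000, and in the Nefh-high set otherwise, so the sets were cut from a measured value and not from a label. All 14 cells were adult mouse RGCs picked by their tdTomato fluorescence from retinas dissociated with papain, without culture, and each was hybridised to 1 Affymetrix mouse genome array after 35 cycles of PCR. The mice carried the Parvalbumin-cre allele together with the Ai9 tdTomato reporter, as double heterozygotes on a mixed background (129P2/OlaHsd, C57BL/6 and 129 SV), and no cell was treated. The reporter marks any cell in which the Pvalb promoter has driven Cre, and its brightness was uneven, so brighter cells were picked more easily. The labels name no animal for any cell. The cells therefore count as cells of a single sample: everything below is a description of these 14 cells, without a test.

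Neurofilaments are assembled from a light, a medium and a heavy subunit (Nefl, Nefm, Nefh) and set the calibre of large axons. Strong labelling of the heavy subunit is a classical feature of the large alpha RGCs. Other RGC types are told apart by transcription factors: Foxp2 marks a family of small RGCs in the mouse, within which Foxp1 and the Brn3 factors (Pou4f1 is Brn3a) differ between types.

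The Nefh signal, in the MAS5 units of the arrays, was 562 in cell 3, 2793 in cell 6, 513 in cell 8 and 668 in cell 10, the 4 Nefh-low cells. In the Nefh-high cells it ran from 9862 to 41411 with a median of 19072. The mean log2 signal was 9.74 ± 1.15 (SD, n = 4) in the Nefh-low cells and 14.25 ± 0.74 (SD, n = 10) in the Nefh-high cells. The cells nearest to the threshold were cell 6 (2793) inside the Nefh-low set and cell 2 (9862) outside it. A signal counted as detected when it was at least 8 times the median of its array, and by that measure Nefh was detected in all 14 cells.

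RGC markers were detected in both sets. By the paper, libraries were first screened by PCR for the RGC gene Sncg and against rhodopsin and glutamine synthetase. Detection of RGC markers is therefore in part a product of that choice. Of 13 RGC markers measured, the Nefh-low cells had 84.6 ± 6.28% detected (SD, n = 4) and the Nefh-high cells 81.5 ± 15.9% (SD, n = 10). The Nefh-low cells contained 6237, 9496, 7200 and 6129 detected probe sets in cells 3, 6, 8 and 10, the order used for the Nefh-low values from here on. In the Nefh-high cells the number ran from 4191 to 11910 with a median of 8436, so the range of the Nefh-low cells lay inside it. The ratio of the 3′ to the 5′ Gapdh control signal was 1.27 ± 0.12 (SD, n = 4) against 1.49 ± 0.47 (SD, n = 10), with the highest values in cell 13 (1.95) and cell 14 (2.61).

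A pair of cell groups stood apart and bears on every comparison. Rod transcripts were plentiful in cells 3 and 6, where 12 of 16 rod markers were detected in each, against 3 in cell 8, 2 in cell 10 and 2 to 5 in the Nefh-high cells. Nrl, a transcription factor of rods, gave 32552, 11839, 3272 and 59.1 in the Nefh-low cells and at most 2989 in the Nefh-high cells. The phototransduction genes Sag and Rcvrn gave 24.4 and 3.03 in cell 8 and 15.5 and 3.34 in cell 10. The mean share of rod markers was 27.8 percentage points higher in the Nefh-low cells, and 1.88 points lower when cells 3 and 6 were left out (a difference of -1.88). The summed rod marker signal ran from 35672 to 203832 in the Nefh-low cells and from 18275 to 150412 in the Nefh-high cells. Cells 5, 11, 13 and 14, all Nefh-high, lacked several transcripts found at high levels elsewhere. Dpysl2, a cytoskeletal regulator of neurons, gave 5.07, 1.93, 1.61 and 0.38 in these cells and 8711 or more in each of the other 10. These are called the transcript-poor cells below, for those missing transcripts only, and cells 3 and 6 the rod-carrying cells. The name was not set by the number of detected probe sets, but these cells also had the fewest of the Nefh-high cells. Cells 5, 11, 13 and 14 had 4191, 7112, 4362 and 5828 of them. The other Nefh-high cells had 7710 to 11910, and the Nefh-low cells 6129 to 9496. Of the 13 RGC markers, cells 5, 13 and 14 had 8 each detected and cell 11 had 9, against 12 or 13 in the other Nefh-high cells. Counts are given below without either group of cells, and the part of rod RNA and of missing transcripts in single genes was not tested.

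**Figure D1:**
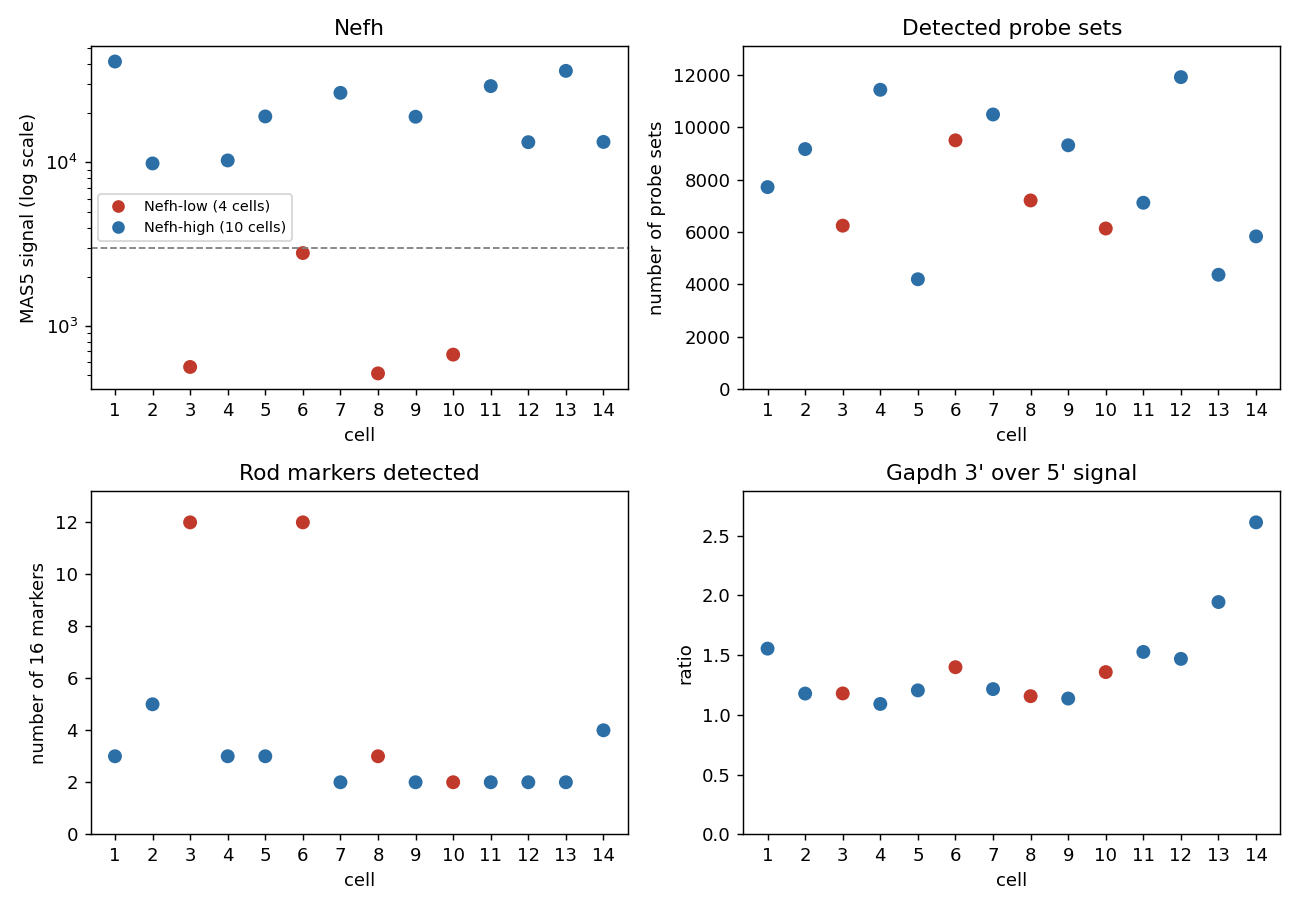
Nefh signal (log scale, dashed line at the threshold of 3000), number of detected probe sets, number of rod markers detected and the Gapdh 3′ over 5′ ratio for each of the 14 cells, 1 point per cell, Nefh-low cells in red and Nefh-high cells in blue. The Nefh-low cells lie between 6129 and 9496 detected probe sets, within the range of the Nefh-high cells, and cells 3 and 6 are alone in having 12 rod markers.

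The other neurofilament genes did not follow Nefh. Nefm, the medium subunit, gave 32356, 19308, 31254 and 60339 in the Nefh-low cells and 18111 to 108887 (median 43547) in the Nefh-high cells. The difference in mean log2(signal + 32), Nefh-low minus Nefh-high and used for all differences below, was -0.29. Nefl, the light subunit, gave 41747, 15688, 52270 and 54382 against 17026 to 91044 (median 55149), a difference of -0.33. The ranges of both genes overlapped almost entirely. Ina, the related alpha-internexin, differed by 1.20 in the other direction, with values of 29998, 6017, 27853 and 6475 within or just above the Nefh-high range of 5.61 to 27648. Of 7 intermediate filament genes, 3 besides Nefh passed the filter on low values, which asked for detection in at least 4 of the 14 cells, and none differed by 4-fold or more.

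Over all genes, 6934 of 18193 passed this filter, Nefh left aside. The median difference over them was -0.23. The mean was at least 4-fold (2 on the log2 scale) higher in the Nefh-low cells for 633 genes, 9.13% of those compared, and at least 4-fold higher in the Nefh-high cells for 1006 genes, 14.5%. Without cells 3 and 6 these counts were 927 and 1520. Without the transcript-poor cells they were 285 and 1481, so the number of genes higher in the Nefh-low cells rested in large part on those cells. A stricter rule asked that every cell of one set lie above every cell of the other. It was met by 14 genes (0.202%) higher in the Nefh-low cells and 15 genes (0.216%) higher in the Nefh-high cells. The 14 were detected in every Nefh-low cell, and 12 of the 15 (0.173% of the genes compared) in every Nefh-high cell. When the transcript-poor cells were left out, all 14 and 14 of the 15 still met it, together with others that brought the counts to 37 and 183. With the rod-carrying cells 3 and 6 left out, 11 of the 14 and all 15 still met it, the counts then being 176 and 118. The other 3 no longer passed the filter on low values. Leaving out cells cannot make separate sets overlap, so in both cases a gene could be lost only through the filter. That these genes stayed is therefore no support for them. The filter took no account of the sets, but a gene found in the Nefh-low cells alone had to be detected in all 4 of them to be compared.

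Foxp1, a forkhead transcription factor, differed most among the genes without overlap. It gave 19562, 7018, 4806 and 22288 in the Nefh-low cells. In the Nefh-high cells it ran from 2.01 to 795 with a median of 13.6, and cell 9 alone reached detection. The difference was 7.51, a 183-fold ratio on the scale of signal + 32, and it was 7.42 without cells 3 and 6. These values come from the brightest of 8 Foxp1 probe sets. Another of them, which like the first was detected in more than 3 cells, gave 22208 in the Nefh-high cell 13 and 2312 in cell 12, and 28.7, 2062, 5854 and 505 in the Nefh-low cells. By that probe set the ranges overlapped and the difference was 2.69, and averaged over all 8 probe sets it was 2.30.

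Because Foxp1 differed most, its promoter windows are shown. RefSeq (GRCm38.p6) gives 3 start sites for it on the minus strand of chromosome 6, each here with the 250 bases before and 50 after the start; which start these cells used was not measured. Capitals mark TGTTTA or its reverse complement TAAACA, the core recognised by forkhead proteins.
Foxp1 window 1, chr6:99520944-99521243: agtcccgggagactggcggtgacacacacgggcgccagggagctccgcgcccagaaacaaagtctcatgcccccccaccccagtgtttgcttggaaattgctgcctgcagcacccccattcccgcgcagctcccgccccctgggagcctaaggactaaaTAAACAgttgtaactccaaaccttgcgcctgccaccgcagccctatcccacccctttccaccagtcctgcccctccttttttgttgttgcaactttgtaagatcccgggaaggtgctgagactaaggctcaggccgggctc
Foxp1 window 2, chr6:99266466-99266765: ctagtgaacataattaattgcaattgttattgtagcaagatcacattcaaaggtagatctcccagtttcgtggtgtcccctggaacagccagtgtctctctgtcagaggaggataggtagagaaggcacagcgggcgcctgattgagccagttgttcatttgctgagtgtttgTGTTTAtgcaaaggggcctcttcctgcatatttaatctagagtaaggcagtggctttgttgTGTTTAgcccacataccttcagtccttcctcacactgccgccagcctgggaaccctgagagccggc
Foxp1 window 3, chr6:99028249-99028548: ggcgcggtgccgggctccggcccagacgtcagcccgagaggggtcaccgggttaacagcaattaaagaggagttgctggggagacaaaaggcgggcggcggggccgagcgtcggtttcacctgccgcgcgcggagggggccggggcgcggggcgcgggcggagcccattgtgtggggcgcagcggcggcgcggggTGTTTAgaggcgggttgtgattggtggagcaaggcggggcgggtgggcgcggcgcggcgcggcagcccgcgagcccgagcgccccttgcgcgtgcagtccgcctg

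Each of the 3 windows held the forkhead core, with 1, 2 and 1 matches, and the 6 letters occur in 13.4% of the 32851 promoter windows of the table. The core ATTAAT recognised by Brn3 factors, which reads the same on both strands, was present in the second window only and occurs in 4.75% of all windows. Of the 12 named genes higher in the Nefh-low cells, 5 had windows in the table, and Foxp1 was the only one of these with a forkhead core. Of the 12 named genes higher in the Nefh-high cells, 10 had windows and 4 of these held it. The matches describe the letters of these windows and no binding.

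Foxp2, the paralog of Foxp1, gave 5042, 8434, 79.9 and 9724 in the Nefh-low cells. Among the Nefh-high cells it was detected in cell 13 (7756) and cell 5 (207), with a median of 8.63 over the set. The sets thus overlapped, with a difference of 4.96. A further Foxp2 probe set was detected in all 4 Nefh-low cells, at 2005, 690, 127 and 3702, and in no Nefh-high cell, where it stayed at or below 72.1. Cell 8, the low one of these 4 by both, gave 6577 on yet another Foxp2 probe set. Cell 13 was therefore the Nefh-high cell with signal for both forkhead genes on some of their probe sets.

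Pou4f1 gave 44599, 10546, 28364 and 19073 in the Nefh-low cells and 10.5 to 13642 (median 5016) in the Nefh-high cells, a difference of 2.96. By this probe set cell 13 again, at 13642, was the only Nefh-high cell above the lowest Nefh-low cell. The other Pou4f1 probe set gave 2341, 1666, 4616 and 341 in the Nefh-low cells and was detected in 6 of 10 Nefh-high cells. It reached 3077 in cell 1 and 3118 in cell 4 but only 50.6 in cell 13. By it the ranges overlapped broadly, with a difference of 2.41. Isl1, a homeobox factor kept by many RGCs, was also higher in the Nefh-low cells, with a difference of 4.56 and overlapping ranges. Its signals were 13735, 5798, 10104 and 33760 against 2.64 to 13512 (median 1121). Isl1 is also a gene of bipolar cells, and the summed signal of the 11 bipolar markers, Isl1 among them, ran from 12907 to 35574 in the Nefh-low cells and from 243 to 16969 in the Nefh-high cells. Isl1 itself made up most of that sum in cells 3 (15283), 8 (12907) and 10 (35574), and less of it in cell 6 (18007). The sum is therefore no separate measure of bipolar transcripts in cells 3, 8 and 10.

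Of 29 factors that separate RGC types, 7 passed the filter. For 5 of them the mean was at least 4-fold higher in the Nefh-low cells and for 1 it was higher in the Nefh-high cells, against shares of 9.13% and 14.5% over all genes compared. The median of these 7 was 3.04, but they include factors that passed only through the set where they were high: over all 29 without the filter it was 0.17, and over the 7 with probe sets averaged 1.68. The counts were 3 and 0 without cell 8. Besides Foxp1 and Foxp2 the 5 were Neurod1 (3.95), Sox4 (3.04) and Barhl2 (2.30). Neurod1, a proneural factor, gave 28.6, 976, 8086 and 13400 in the Nefh-low cells and at most 553 in the Nefh-high cells, so cell 3 was the exception. Satb1, a chromatin organiser that marks direction-selective RGCs, was the one in the other direction (-2.02), detected in 0 of 4 and 4 of 10 cells. With the transcript-poor cells left out, the list had 2 higher and 1 lower of 6, with a median of 1.05. Tbr1, a T-box factor, was detected in 1 Nefh-low cell, cell 10, at 11387. Eomes, Irx3 and Bcl11b were among the members detected in no cell.

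**Figure D2:**
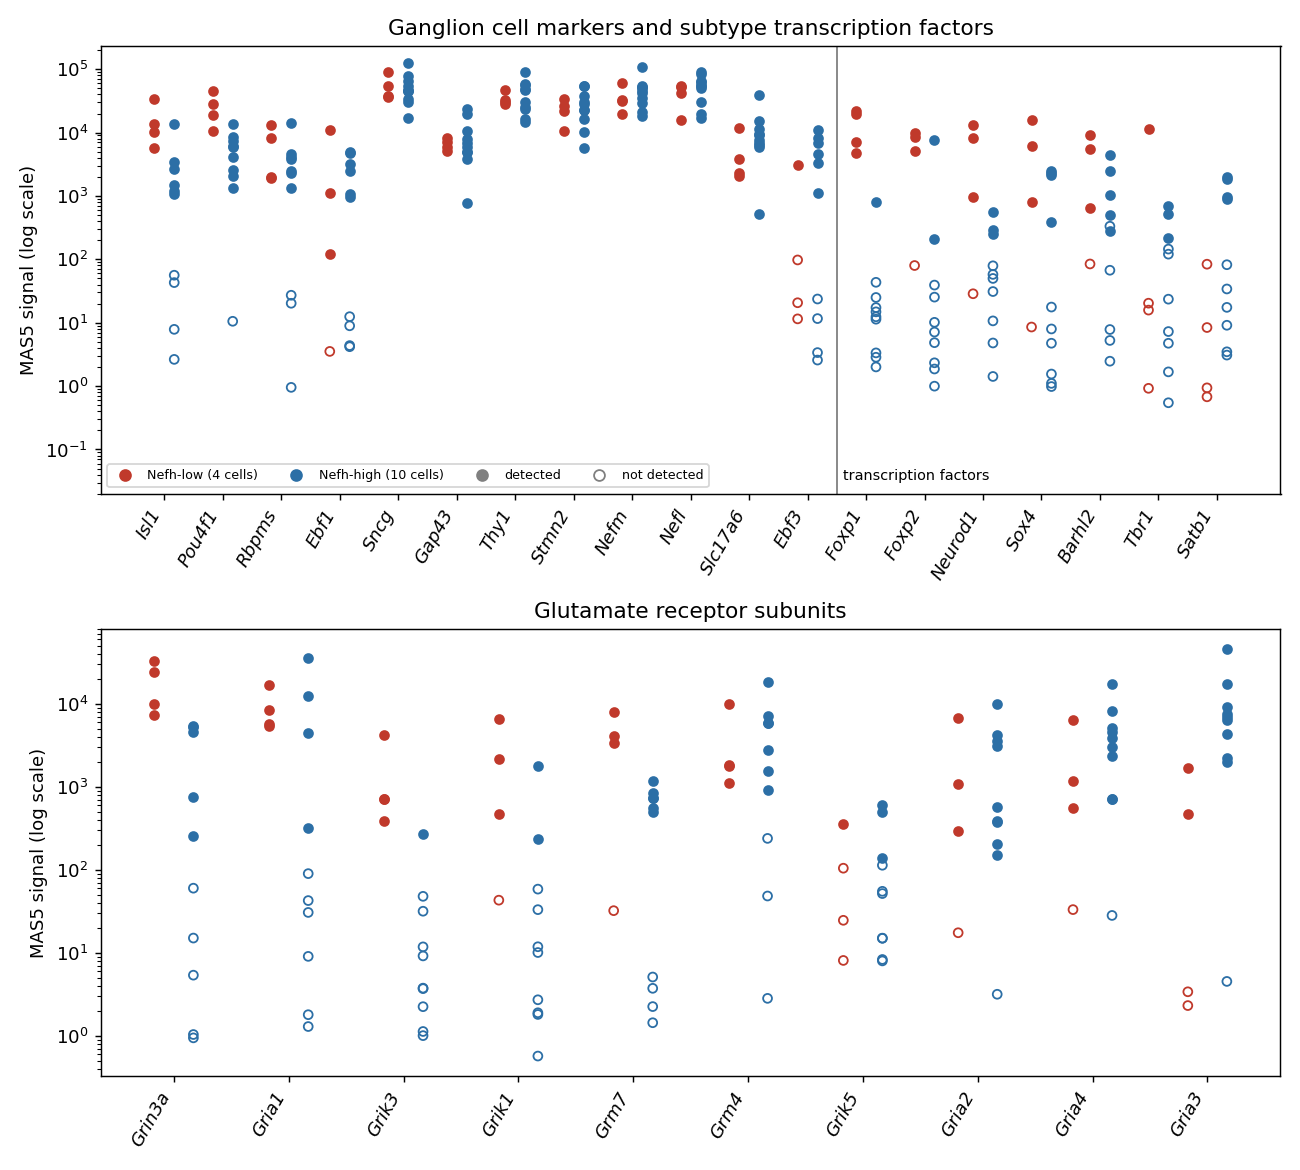
MAS5 signal (log scale) of ganglion cell markers and subtype transcription factors (top) and of glutamate receptor subunits (bottom), 1 point per cell, Nefh-low cells in red, Nefh-high cells in blue, open points below the detection limit. Foxp1, Grin3a and Grik3 have every red point above every blue one, while Nefl, Nefm and Thy1 overlap.

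Glutamate receptor genes, whose subunits set the response of RGCs to bipolar cell input, differed in both directions. Of 20 measured, 10 passed the filter; 5 were at least 4-fold higher in the Nefh-low cells and 1 in the Nefh-high cells, against 9.13% and 14.5% of all genes compared. The median of the 10 was 1.90, and over all 20 without the filter it was 0.23. Grin3a, an NMDA receptor subunit that lowers calcium flow, gave 24191, 9889, 32938 and 7379 against 0.95 to 5450 (median 157), a difference of 5.71 without overlap. Its second brightest probe set gave 30826 in the Nefh-high cell 13 and 12058 in cell 9, so by that one the sets overlapped. Grik3, a kainate receptor subunit, gave 720, 4239, 707 and 386 against at most 273, a difference of 4.27, and was detected in 1 Nefh-high cell. The kainate subunit Grik1 (3.49) was detected in 3 of 4 Nefh-low and 2 of 10 Nefh-high cells. The metabotropic receptor Grm7 (2.88) read 4055, 7969, 32.3 and 3398 against at most 1170.

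Among the AMPA receptor subunits the directions were opposite. Gria1 gave 5350, 8375, 5704 and 16975 in the Nefh-low cells and was detected in 4 of 10 Nefh-high cells, where it reached 35303 (difference 4.60). Gria3 gave 3.40, 1686, 2.32 and 475 in the Nefh-low cells and was detected in 9 of 10 Nefh-high cells, with a median of 6694 (difference -4.55). Gria2 (-0.39) and Gria4 (-1.61) were detected in 3 of 4 and 9 of 10 cells each. The list had 4 higher and 2 lower of 9 without the transcript-poor cells, and without the rod-carrying cells it had 3 higher and 2 lower of 8.

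The remaining genes named as higher in every Nefh-low cell were of several kinds. Gpr83, a G protein-coupled receptor, gave 4899, 8914, 533 and 800 and at most 22.0 in the Nefh-high cells, none of which detected it (difference 5.83). Because the other cells never detected it, this gene passed the filter through the Nefh-low cells alone. Insrr, a receptor of the insulin receptor family, gave 15009, 2697, 1078 and 9118 against at most 781 (5.26). Syt7, a calcium sensor of vesicle release, was even among the Nefh-low cells, at 26244, 31847, 26404 and 26222, and ran from 2.82 to 13445 in the Nefh-high cells (3.68). Its 2 other probe sets that passed the filter were less even there, at 2778 to 18255 and 513 to 3944. Both overlapped between the sets, with differences of 3.93 and 1.87. The rest were Hnrnph3 (4.59), an RNA-binding protein, Spred1 (4.06), an inhibitor of Ras signalling, Camk2n1 (3.86), an inhibitor of calcium/calmodulin kinase, Itch (3.50), a ubiquitin ligase, Slc48a1 (3.07), a haem transporter, and Rab11fip4 (2.61), an effector of Rab11. Camk2n1 and Rab11fip4 fell short of 4-fold without the transcript-poor cells, at 1.44 and 1.02. Averaged over all their probe sets, Spred1 (1.46), Itch (0.82), Camk2n1 (1.77) and Rab11fip4 (0.58) were also short of it. The 3 other Itch probe sets were detected in no cell, and the 2 others of Rab11fip4 in 1 Nefh-high cell each. The last genes without overlap, Ywhaz (2.01) and Tmem252 (1.64), lay outside the named 12 and were added after their values were seen.

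**Figure D3:**
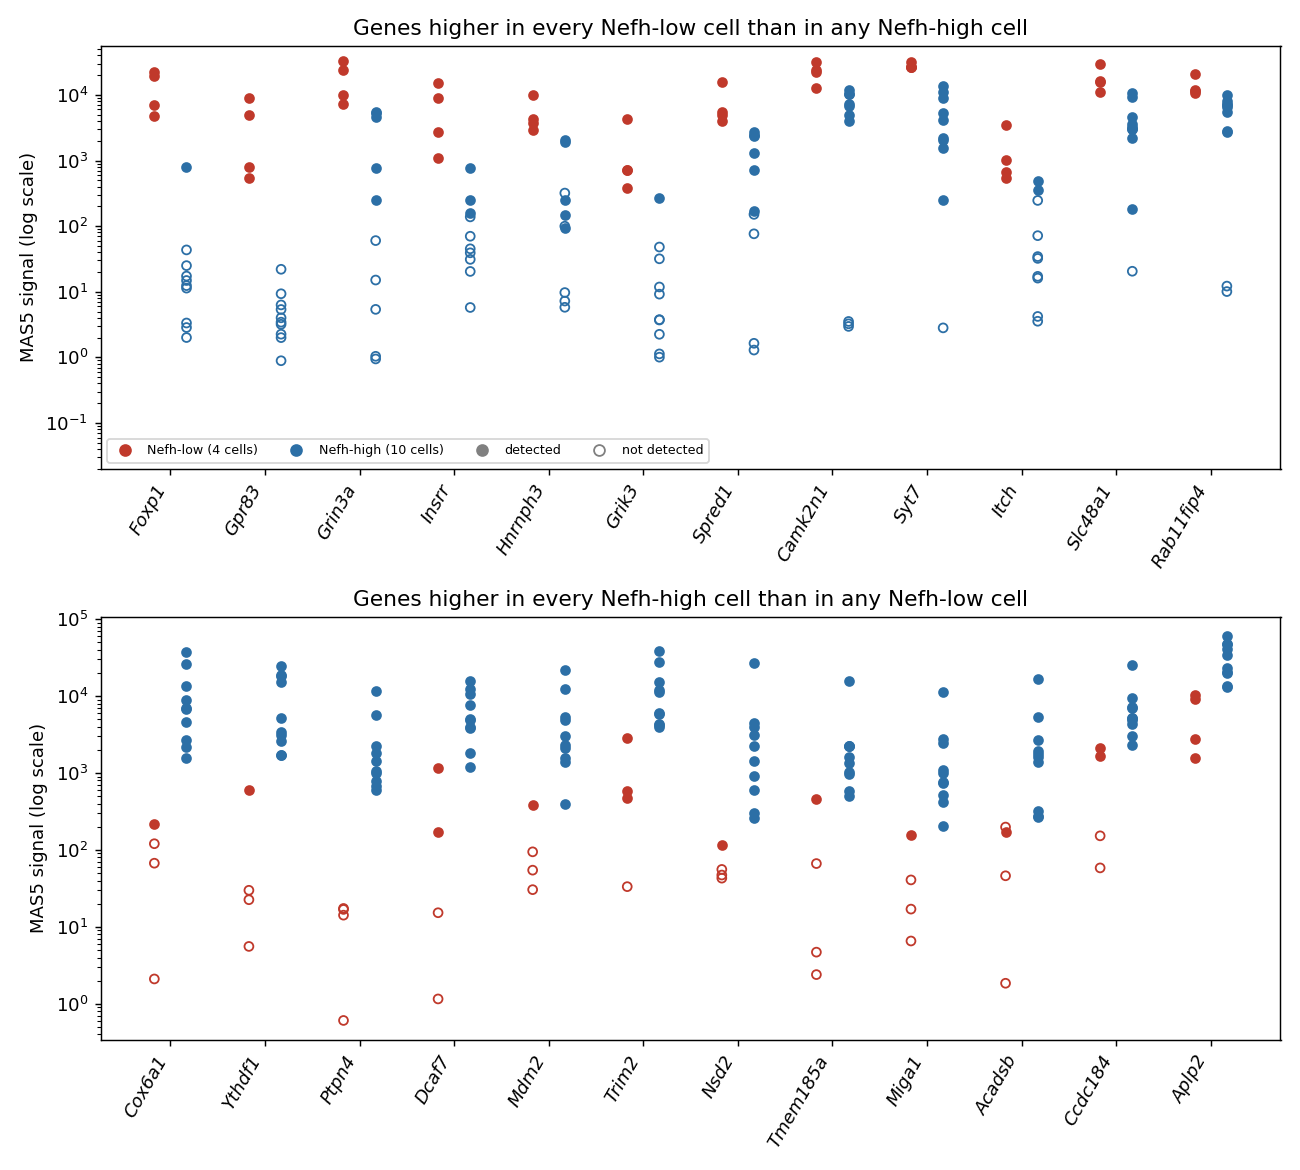
MAS5 signal (log scale) in each of the 14 cells for the 12 genes with the largest difference that were higher in every Nefh-low cell (top) and for the 12 that were higher in every Nefh-high cell (bottom), 1 point per cell, red for Nefh-low and blue for Nefh-high, open points below the detection limit. Foxp1 and Gpr83 are near background in nearly all blue cells, and Cox6a1 and Ptpn4 in nearly all red ones.

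In the opposite direction Cox6a1, a subunit of cytochrome c oxidase, came first. It gave 121, 216, 2.11 and 67.3 in the Nefh-low cells and 1564 to 37750 (median 6894) in the Nefh-high cells, a difference of -6.02, and was -5.64 without the transcript-poor cells. The other Cox6a1 probe set also did not overlap between the sets, with at most 51.7 in a Nefh-low cell. Ptpn4, a protein tyrosine phosphatase, was detected in 0 of 4 and 10 of 10 cells, at 16.9, 0.61, 14.2 and 17.4 against 594 to 11506 (-5.25). Ythdf1, a reader of m6A in mRNA, gave 29.9, 22.6, 601 and 5.58 against 1698 to 24948 (-5.99).

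Aplp2, a relative of the amyloid precursor protein, was detected in all 14 cells and was still apart, at 2751, 10438, 9079 and 1546 against 13149 to 60366 (-2.64). A further Aplp2 probe set repeated this without overlap, and 2 others differed by 1.08 and 1.92 in the other direction. The remaining named genes were Dcaf7 (-5.22), Mdm2 (-4.61), the ubiquitin ligase that restrains p53, Trim2 (-4.28), a ubiquitin ligase reported to bind the light neurofilament subunit, Nsd2 (-4.23), a histone methyltransferase, Tmem185a (-4.22), Miga1 (-3.98), a mitochondrial fusion factor, Acadsb (-3.85), an enzyme of branched-chain amino acid breakdown, and Ccdc184 (-3.57). Trim2 gave 33.4, 469, 582 and 2810 against 3972 to 39018, but averaged over its 6 probe sets it differed by -0.75. The 5 other Trim2 probe sets were detected in no cell. Dcaf7 (-1.70), Mdm2 (-1.97), Nsd2 (-1.07), Ccdc184 (-0.76) and Aplp2 (-0.66) were also short of 4-fold by that average. The other Ccdc184 probe set passed the filter and was past 4-fold in the other direction (2.05). It was detected in 4 of 4 Nefh-low and 6 of 10 Nefh-high cells. Lrrc27 (-3.85), Phf24 (-4.72) and Tigd2 (-4.27), outside the named 12, also did not overlap but were undetected in some Nefh-high cells. Of the 24 named genes in both directions, 12 had at least 1 other probe set that passed the filter. At least 1 such probe set pointed the same way for 10 genes, and was past 4-fold that way for 7. Not all probe sets of these genes did so. Of the 4 others of Aplp2 that passed, 2 pointed the same way, and of the 5 others of Spred1, 1 was past 4-fold.

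Potassium channel genes, which shape firing and repolarisation, differed about as often as genes at large. Of 34 measured, 25 passed; 5 were at least 4-fold higher in the Nefh-high cells and 0 in the Nefh-low cells, with a median of -0.68. Over all genes compared the shares were 14.5% and 9.13%, so the 5 of 25 lay near the background. Kcnc1 (Kv3.1), a channel of fast-spiking neurons, gave 11.7, 11081, 436 and 658 in the Nefh-low cells and 476 to 20352 (median 5170) in the Nefh-high cells (-2.82). Kcnd1 (-2.91), a subunit of A-type channels, and the auxiliary subunit Kcnab1 (-2.60) were detected in 0 of 4 Nefh-low cells and in 6 and 7 of 10 Nefh-high cells. Kcnab3 (-2.34) and Kcnip1 (-2.05) were the other members past 4-fold. The auxiliary subunit Kcnab2 was level, with 9036 to 23074 against 2246 to 34674 (0.09). The counts were 7 and 0 of 22 without the transcript-poor cells. They were 2 and 1 of 25 without cell 3 alone, 8 and 0 of 24 without cell 6 alone, and 6 and 3 of 24 without both. With all probe sets of a gene averaged they were 0 and 0 of 25.

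**Figure D4:**
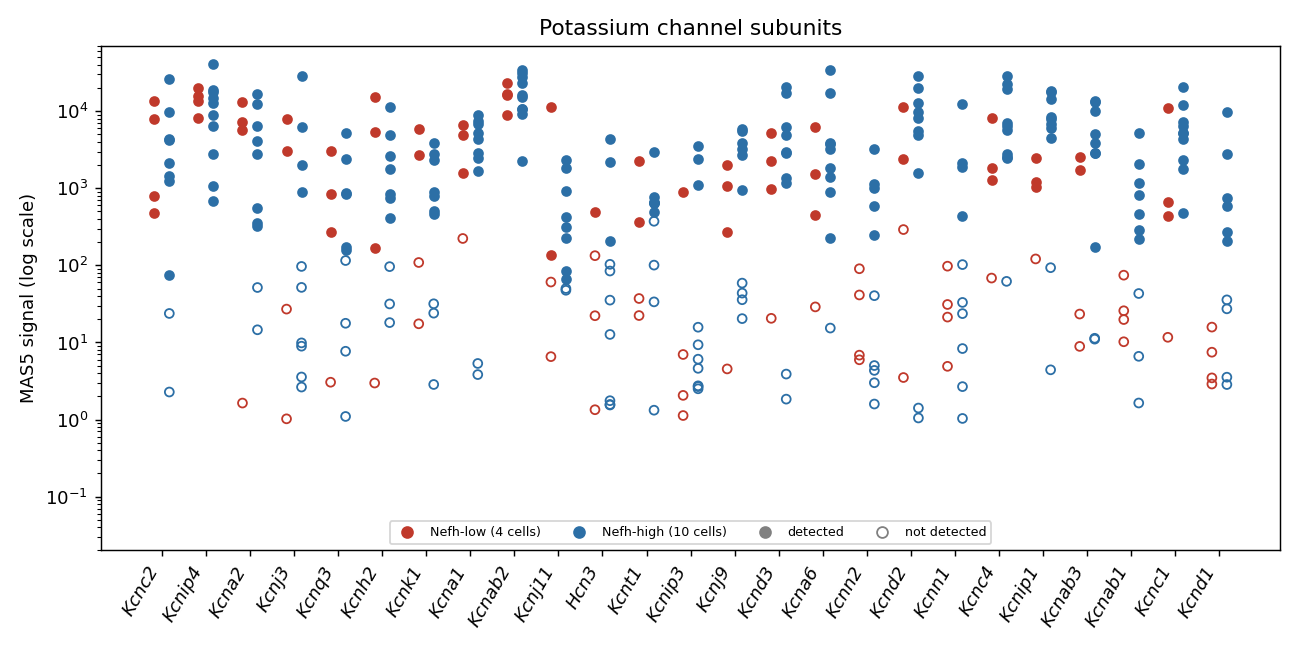
MAS5 signal (log scale) of the 25 potassium channel genes that passed the filter, ordered by their difference, 1 point per cell, red for Nefh-low and blue for Nefh-high, open points below the detection limit. At the right, Kcnd1 and Kcnab1 have no detected red point, and at the centre and left the sets overlap.

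Energy and transport genes were mixed. Of 54 oxidative phosphorylation genes that passed, 9 were at least 4-fold higher in the Nefh-high cells and 4 in the Nefh-low cells, near the shares of 14.5% and 9.13% over all genes compared. Their median was -0.14, and 0.25 without cell 8. Cox7a2 (-3.96), another subunit of cytochrome c oxidase, gave 4337, 20993, 19.2 and 135 against 2215 to 53885, so cells 8 and 10 carried its difference. Atp5d (-3.52), a subunit of ATP synthase, gave 15149 in cell 8 and at most 186 in the other Nefh-low cells, against 292 or more. The 4 higher in the Nefh-low cells were Sdhc (3.50), Ndufa4 (2.54), Ndufc2 (2.48) and Ndufb3 (2.24). Leaving out the transcript-poor cells gave 8 and 1, and without the rod-carrying cells they were 15 and 4. Of 21 axonal transport motor genes, 5 were higher in the Nefh-high cells (Dctn1, Kif5b, Kif3a, Dync1h1 and Klc1) and 2 in the Nefh-low cells (Dync1li2 and Dync1li1), again against 14.5% and 9.13% of all genes, with a median of -0.52. Dync1h1, the dynein heavy chain, gave 410, 9169, 5401 and 5954 against 8597 to 45287 (-2.52). The motor counts were 6 and 0 without the transcript-poor cells, and 1 and 2 with probe sets averaged.

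At the axon initial segment, Fgf13, a partner of sodium channels, gave 22285, 4381, 22908 and 28588 in the Nefh-low cells and 0.97 to 8832 (median 28.5) in the Nefh-high cells, of which 4 detected it (6.13). Of the 12 genes of this list that passed, 3 were at least 4-fold higher in the Nefh-low cells (Nrcam at 2.68 and Epb41l3 at 2.61 being the others). Cntn2 was lower (-2.25), and the median was -0.49. Over all genes compared, 9.13% were higher and 14.5% lower, the shares to set beside the sodium channels below too. Without cell 6 alone, 3 genes of the initial segment list were higher and 4 lower, and without cell 3 alone 3 and 0, with a median of 0.21. Of 7 sodium channel genes, Scn2a was higher (4.0) and Scn7a, detected in 0 of 4 and 4 of 10 cells, was lower (-3.13), while Scn8a, the main channel of the mature initial segment, differed by 1.04. In the comparison without the transcript-poor cells none of 6 sodium channel genes was past 4-fold.

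Among synaptic vesicle genes, 1 of 17 was higher (Syt4, 2.68) and 2 lower (Syt2 and Cplx1), with a median of -0.05. For this list and those that follow here, the shares over all genes compared were 9.13% higher and 14.5% lower. Syt2, a fast calcium sensor of release, gave at most 55.5 in the Nefh-low cells and was detected in 7 of 10 Nefh-high cells (-3.90). Of 10 neuropeptide and granin genes, 2 were higher in the Nefh-low cells and 0 lower (median 0.56). Tac1, the precursor of substance P, gave 24988, 16466, 14080 and 79.3 in the Nefh-low cells and was detected in 2 Nefh-high cells, cell 13 at 49420 and cell 4 at 11152 (4.95). The other was Scg2 (2.92). Of 20 adhesion and guidance genes, 2 were higher (Pcdh10 and Jam2) and 3 lower (Pcdh9, Epha4 and Sema5a), near those shares, with a median of -0.57. Pcdh9, a protocadherin, was at or below 25.8 in the Nefh-low cells and detected in 8 of 10 Nefh-high cells, at a median of 5179 (-5.68). Jam2, an adhesion molecule of a direction-selective RGC type, gave 6171, 1536, 4424 and 6860 against 2.78 to 1787 (3.84).

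Calb1, a calcium buffer, was at or below 67.3 in the Nefh-low cells and detected in 5 of 10 Nefh-high cells, up to 36529 (-3.91). Of the 12 calcium-binding genes that passed, 2 were higher in the Nefh-low cells and 2 lower, with a median of 0.59. Over all genes compared the shares were 9.13% and 14.5%, for the lists that follow here too. Pvalb, whose promoter drove Cre in these mice, was detected in all 4 Nefh-low cells, at 1146, 26015, 14627 and 8772, and in 9 of 10 Nefh-high cells (-0.35). Of 6 genes of direction-selective RGCs, 1 was higher and 2 lower (median -0.33), and of 2 alpha RGC genes that passed, none was past 4-fold. Of 7 receptors for GABA, glycine and acetylcholine, Gabrb2 was higher (2.85) and Gabra3 lower (-2.72). Of 7 immediate early and stress genes, Ddit3 alone was past 4-fold (-2.30). Cell 8 was the Nefh-low cell with Dusp1 (15485) and Fos (10644), early response genes. Among the sex chromosome transcripts Xist was found in cells 8 (4360) and 10 (5562), and Eif2s3y in no Nefh-low cell.

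Counts of widely expressed genes also depended on the transcript-poor cells. Of 27 cytosolic ribosomal protein genes, 5 were higher in the Nefh-low cells and 0 lower, at a median of 0.22. Over all genes compared the shares were 9.13% and 14.5%, for the other lists here too. Leaving the transcript-poor cells out gave 0 and 1 ribosomal protein genes, and with all arrays scaled to the same median the list's median turned to -0.06. Of 5 housekeeping genes, 2 were higher (Hprt and Ywhaz), and 0 without those cells. Of 22 microtubule genes, 2 were higher (Dpysl2 and Tubb2b) and 1 lower (Map6), and 0 of either without them. Those cells were grouped because they lacked abundant transcripts, Dpysl2, Hprt and Sdhc among them. For these genes the change follows from the grouping and is no separate measure.

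Apart from rods, the mean share of markers of other cells that was detected differed by at most 12.5 percentage points between the sets. That largest gap was for astrocyte markers (0% against 12.5 ± 13.2% of 4). Bipolar markers were detected at 25.0 ± 4.55% of 11 (SD, n = 4) against 18.2 ± 10.5% (SD, n = 10). No Nefh-low cell had a detected cone, astrocyte, microglia or pigment epithelium marker, while 2 cone, 2 astrocyte and 2 microglia markers were detected in some Nefh-high cell. Müller glia markers were detected at 32.1 ± 18.0% of 14 (SD, n = 4) against 25.7 ± 15.1% (SD, n = 10), and amacrine markers at 16.7 ± 6.80% of 12 against 14.2 ± 7.91%. Horizontal cell markers stood at 16.7% of 6 in every Nefh-low cell and 26.7 ± 8.61% in the Nefh-high cells. Oligodendrocyte markers (20.0 ± 16.3% of 5 against 12 ± 10.3%), endothelial and pericyte markers (7.5 ± 9.57% of 10 against 4.0 ± 6.99%) and red blood cell markers (25.0 ± 16.7% of 3 against 23.3 ± 16.1%) overlapped between the sets. Mbp, the myelin basic protein gene, gave 4317, 2265, 2847 and 95.4 in the Nefh-low cells and was detected in 4 Nefh-high cells (2.51).

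**Figure D5:**
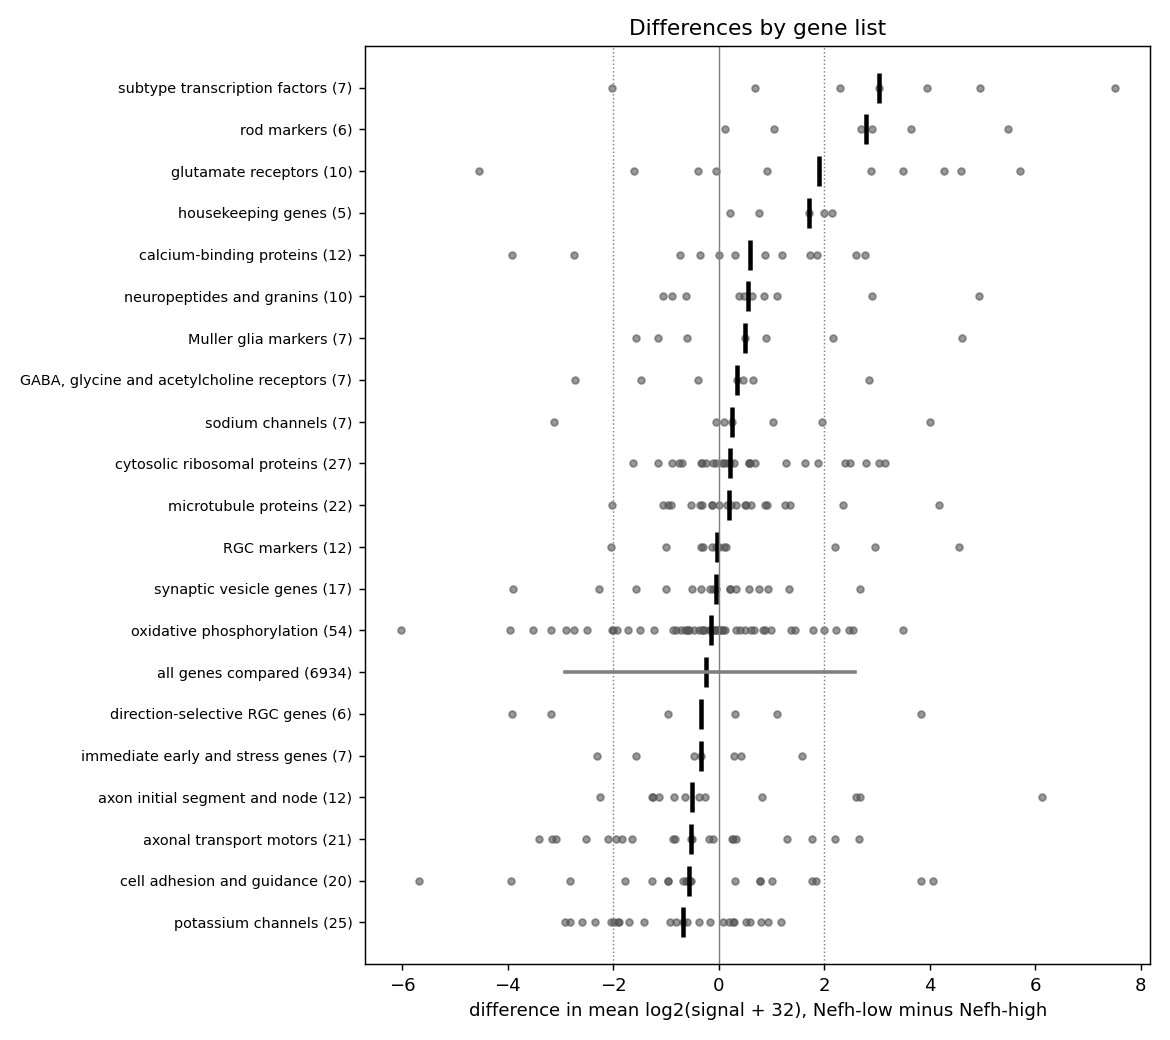
Difference in mean log2(signal + 32), Nefh-low minus Nefh-high, for the genes of each list that passed the filter (grey points, number in parentheses) with the list's median (black bar). The grey line spans the 5th to 95th percentile of all 6934 genes, dotted lines mark 4-fold, and the 7 subtype transcription factors that passed have the highest median, at 3.04.

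Over whole profiles the Nefh-low cells were little more alike than any pair of cells. The median Pearson r over the compared genes was 0.392 for the 6 pairs of Nefh-low cells (0.375 to 0.425), 0.378 for the 45 pairs of Nefh-high cells and 0.362 for the 40 pairs of 1 cell from each set. The points share cells, the gene filter and array scaling, and the values are a description. Cell 3 was most like cell 6 and cell 10 most like cell 8, but cell 6 was most like the Nefh-high cell 12 (0.519) and cell 8 most like the Nefh-high cell 9.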

How the data were processed

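Single cells were reverse transcribed with an oligo-dT primer and amplified by PCR, and cDNA was hybridised at more than one facility (which array ran where is not given). The deposited values are MAS5 intensity values made by the authors, 1 column per cell for 45101 probe sets; MAS5 is named in the submitters' processing notes, no version of it is given there. The 2% trimmed mean of each array lay between 500.003 and 500.011. Present or absent calls were not used.

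No count of molecules underlies an array, so the number of arrays limits the precision. After 64 control probe sets were set aside, 34945 probe sets carried 1 gene symbol, 932 several and 9160 none here; 34741 of the first matched the GRCm38.p6 RefSeq gene table, which was used for names. Each of the 18193 genes was read from its brightest probe set (highest mean of log2(signal + 32) over all cells). Genes detected (8 times the array median) in at least 4 cells were compared. Named genes were the markers given with the rule, the 12 genes per direction with the largest difference among those without overlap and detected in every cell of the higher set, and list members (up to 5 of a long list, those with the largest differences, with some further members added for their roles). The sets, lists and named genes were chosen with earlier results of these data known. No test was made, because the labels name no animal and the sets follow a measured value. The code of the comparison was run on simulated data with large known shifts and less spread between cells than most named genes had. That run does not measure errors at the real spread. Alternatives covered the pseudocount, the filter, the scaling, the probe set rule, detection, the Nefh threshold and single cells left out. Calculations used Python 3.11.15, numpy 2.4.6, pandas 2.3.3, scipy 1.17.1 and matplotlib 3.10.9.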

Additional observations from a re-analysis of the deposited data

How the results depend on the processing

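Of the differences of Pou4f1, Foxp2 and the 24 named genes without overlap, none changed direction in any alternative. Single list members were not recomputed one by one. For the 24 this was largely fixed in advance. They were picked for separate sets in these values, and another pseudocount, set medians or fewer cells cannot reverse that. Of the values in the alternatives, 390 moved by less than the spread between cells and 26 by more. The 390 include those at a Nefh threshold of 6000, where the sets were unchanged and no value could move. The 4-fold count of genes higher in the Nefh-low cells (633) was 1011 with a pseudocount of 1, 373 with a larger one, 328 with all probe sets of a gene averaged, 409 without cells 5 and 13, 285 without cells 5, 11, 13 and 14, and 397 against the Nefh-high cells within the range of detected probe sets of the Nefh-low cells (cells 1, 2, 9 and 11). The opposite count (1006) was 508 with the larger pseudocount, 484 with probe sets averaged and 1520 without cells 3 and 6. The share of 4-fold calls that were higher in the Nefh-low cells was 38.6%, and 16.1% without cells 5, 11, 13 and 14, 23.2% without cells 5 and 13 and 28.8% against cells 1, 2, 9 and 11. Quantile normalization moved the median difference over all genes to -0.05 and scaling arrays to the same median moved it to -0.40; of the 14 and 15 genes without overlap, 9 and 8 and 5 and 11 still met that rule. The count without overlap in the Nefh-low direction (14) was 5 with equal medians, 26 without a filter, 176 without cells 3 and 6, 48 at a Nefh threshold of 1500, 37 without cells 5, 11, 13 and 14 and 62 against cells 1, 2, 9 and 11; fewer cells make overlap rarer by construction. In the other direction (15) it was 118 without cells 3 and 6, 64 without cells 5 and 13, 44 at the threshold of 1500, 183 without cells 5, 11, 13 and 14 and 167 against cells 1, 2, 9 and 11. At 1500, which moves cell 6 to the Nefh-high set, 3 of the 14 and 6 of the 15 genes still met it. Leaving out 1 Nefh-low cell at a time gave 37 to 58 and 26 to 52 genes without overlap, 665 to 800 and 974 to 1409 genes past 4-fold and a rod marker difference of 17.9 to 38.8 points, which was -1.88 without cells 3 and 6. A threshold of 6000 gave the same sets. Where not stated, the cause of a change was not tested. The detection limit depends on each array's median, and an undetected transcript may have been lost in amplification. No paired analysis was possible because the cells form a single labelled group without shared replicate numbers. The alternatives that leave out cells 5, 11, 13 and 14 or keep cells 1, 2, 9 and 11 were added after seeing the data.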
